A study of Macaca mulatta with 25 samples.

Results

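Sustained exposure to progesterone was compared with acute exposure in the cervix of ovariectomized rhesus macaques (Macaca mulatta). The late arrays were the 10 arrays labelled with 7 days (E+7P, 5 arrays) or 14 days (E+14P, 5 arrays) of progesterone. They were set against the 5 arrays labelled with 1 day (E+1P), so that 15 of the 25 arrays of the series entered the comparison. The 25 animals were ovariectomized, and all of them, the 5 of the E2 group included, carried an estradiol implant in the scapular region. The progesterone groups carried a progesterone implant in addition, for 1, 3, 7 or 14 days. The E2 group had 14 days of estradiol alone, and the days of estradiol in the progesterone groups are not given in the labels. Group sizes stated in the design text differ (13 for E2, then 4, 5, 5 and 10), and the groups used are those on the array labels. The 5 arrays with 3 days of progesterone (E+3P), which were uneven in tissue makeup, stayed out. Each array measured total RNA of whole cervix tissue, and which region of the cervix was dissected is not given in the labels. The arrays carry 40489 probe sets, of which 16020 had a single gene symbol (15534 genes). A gene with several such probe sets was represented by the one with the highest mean signal.

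Progesterone acts through the nuclear progesterone receptor, which estradiol induces, and in the reproductive tract it lowers the receptors of both hormones and opposes many effects of estradiol. In the endocervix estradiol drives the columnar epithelium to secrete abundant watery mucus, and progesterone makes the mucus scant and thick. Mucins are large glycoproteins that are folded in the endoplasmic reticulum (ER), glycosylated in the Golgi apparatus and then secreted. The stroma below the epithelium holds collagen, fibroblasts and smooth muscle.

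Values are log2 signals, so that a difference of 1 is a 2-fold difference, and a log2 fold change is the mean of the late arrays minus that of E+1P, with its standard error (SE). A gene is called higher or lower where limma's moderated test gave an adjusted p under 0.05 over all 40489 probe sets. The number of arrays limits the precision, the array medians lay between 5.50 and 5.60, and no pair of arrays was identical. Markers of columnar epithelium had mean log2 signals of 7.19 to 7.56 on the E+1P arrays and 6.66 to 7.48 on the late arrays. Squamous markers were uneven, with means of 7.03 and 6.86 on E+1P replicates 2 and 4 and 5.04 to 5.76 on the other 3 E+1P arrays. The smooth muscle list ranged from 6.19 to 7.35 in E+1P, from 6.75 to 8.90 in E+7P and from 7.07 to 9.06 in E+14P. E+14P replicate 4 had a ciliated cell mean of 4.69, against 5.91 to 6.64 on the other E+14P arrays. E+14P replicate 5 had a squamous mean of 8.08, the highest of the 15 arrays. These 2 arrays stood apart from the rest, by more than 4 scaled median absolute deviations in one of the marker means.

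The late arrays differed from E+1P in 1568 of 15534 genes (10.1%), 715 higher (4.6%) and 853 lower (5.49%). At least 2-fold changes were more often decreases, with 188 genes lower and 89 higher. All 10 late arrays lay below every E+1P array in 471 genes (3.03%) and above every E+1P array in 298 genes (1.92%). These shares are the background for each gene described below as without overlap, and the choice of genes by this comparison favours such a gap. The median log2 fold change of all genes was 0.01. The shares over all genes, 10.1% called, 4.6% higher and 5.49% lower, are the background for the list counts below. Over all 40489 probe sets 2802 were called (6.92%), 1306 higher and 1496 lower. With the smooth muscle mean of each array as a covariate 1580 probe sets were called, and with the columnar mean 1762. Whether the difference in smooth muscle or columnar content contributes to single genes was not tested beyond these fits, in which 38 and 32 named genes lost their call. In a fit of all 25 arrays 45 did. Named genes that are members of a marker list were themselves part of its mean.

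OVGP1 (probe set 13598065), which encodes an oviduct-type secreted glycoprotein of estrogen-stimulated mucosa, had the largest decrease of all named genes. Its log2 signals in the E+1P replicates 1 to 5 were 8.73, 10.29, 7.65, 9.46 and 8.20, and the late arrays ranged from 4.25 to 6.84 with a median of 4.82. All 10 late arrays lay below the lowest E+1P array, and the highest of them was E+14P replicate 1. The decrease was 14.6-fold (log2 fold change -3.86, SE 0.44, adjusted p = 6.62e-05). E2 arrays had a mean of 9.33 ± 2.20 (SD, n = 5), near that of E+1P (8.87 ± 1.04, n = 5). E2 replicate 3 was the highest E2 array at 12.63, and the E2 median was 8.86. In whole tissue, fewer cells that express a gene and less RNA per cell cannot be told apart, here or for any gene below.

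CLCA1 (13584945), a secreted goblet cell protein that processes mucins, gave 11.25, 6.41, 9.76, 7.74 and 10.93 in E+1P. Its late arrays ranged from 4.50 to 7.42 with a median of 6.34. E+1P replicates 2 and 4, the arrays with the higher squamous marker means, were low for CLCA1, and 5 of the 10 late arrays lay below every E+1P array. CLCA1 was lower by 7.65-fold (log2 fold change -2.94, SE 0.68, adjusted p = 0.0149). The call was lost without E+1P replicate 1 or 5 (highest adjusted p = 0.0553) and with the smooth muscle (adjusted p = 0.124) or columnar (adjusted p = 0.0848) covariate.

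ST6GALNAC1 (13681661), a sialyltransferase that caps mucin-type sugar chains, lay between 9.58 and 10.00 on all 5 E+1P arrays. Late arrays ran from 6.25 to 7.94 with a median of 7.38, without overlap, and the decrease was 6.16-fold (log2 fold change -2.62, SE 0.24, adjusted p = 8.1e-06). The E2 mean was 7.57 ± 0.94, so the E+1P arrays stood above both the E2 and the late arrays. MUC5B (13646768), the main gel-forming mucin of the cervix, gave 9.67, 9.75, 9.11, 9.29 and 9.24 in E+1P and 7.17 to 8.75 in the late arrays, with a median of 7.96. No late array reached the lowest E+1P array, and the log2 fold change was -1.52 (SE 0.22, adjusted p = 0.000586). SPDEF (13745759), a transcription factor of goblet cell differentiation, fell from 7.14 ± 0.18 (n = 5) to 5.50 ± 0.33 (n = 10), a log2 fold change of -1.64 (SE 0.16, adjusted p = 1.45e-05). All 10 late arrays lay below every E+1P array for SPDEF, and its E2 mean was 6.49 ± 0.20.

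In the list of mucins and mucus genes, 11 of 26 measured members were lower in the late arrays and 0 were higher. Of all genes 5.49% were lower and 4.6% higher. All 10 late arrays lay below every E+1P array in 6 members, against 3.03% of all genes. The median log2 fold change of the list was -0.45. Besides the genes above, the membrane mucins MUC15 (log2 fold change -1.88, adjusted p = 0.00437) and MUC1 (-1.32, adjusted p = 0.00159) fell, as did the secreted intestinal-type mucin MUC2 (-1.16, adjusted p = 0.0164). AGR3, an ER protein of secretory cells, fell by 0.93 (adjusted p = 0.000998) and GALNT7, which adds sugars to mucin cores, by 0.85 (adjusted p = 0.00101). TFF3, a small peptide secreted with mucins, fell by 1.81 (SE 0.49, adjusted p = 0.0369). Other secreted mucins did not pass the test, with log2 fold changes of -0.13 for MUC5AC (adjusted p = 0.676) and -0.05 for MUC6 (adjusted p = 0.887). The mean of the list on each array was 7.34 to 7.54 in E+1P, 6.44 to 6.70 in E+7P and 6.39 to 6.85 in E+14P, so the late arrays did not overlap E+1P. In the E2 arrays it was 6.98, on E2 replicate 3, to 7.59, with a median of 7.45. Without E+14P replicates 4 and 5, 11 members were lower and 1 higher; with all 25 arrays in 1 fit 4 were lower and with the smooth muscle covariate 7. The smooth muscle covariate ended the calls of MUC15 (adjusted p = 0.0555), MUC2 (0.0705) and TFF3 (0.167), and in the fit of all 25 arrays the calls of MUC1 (adjusted p = 0.117), MUC2 (0.116), MUC5B (0.247), MUC15 (0.0617), AGR3 (0.503), GALNT7 (0.0525) and TFF3 (0.0575) were lost. The MUC2 call was also lost without E+1P replicate 1 or 4 (highest adjusted p = 0.0594), and the TFF3 call with the columnar covariate (0.101) and without any single one of 11 of the 15 arrays, namely E+1P replicates 1, 2, 4 and 5, E+7P replicates 1 to 3 and E+14P replicates 2 to 5 (highest adjusted p = 0.117).

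**Figure D1:**
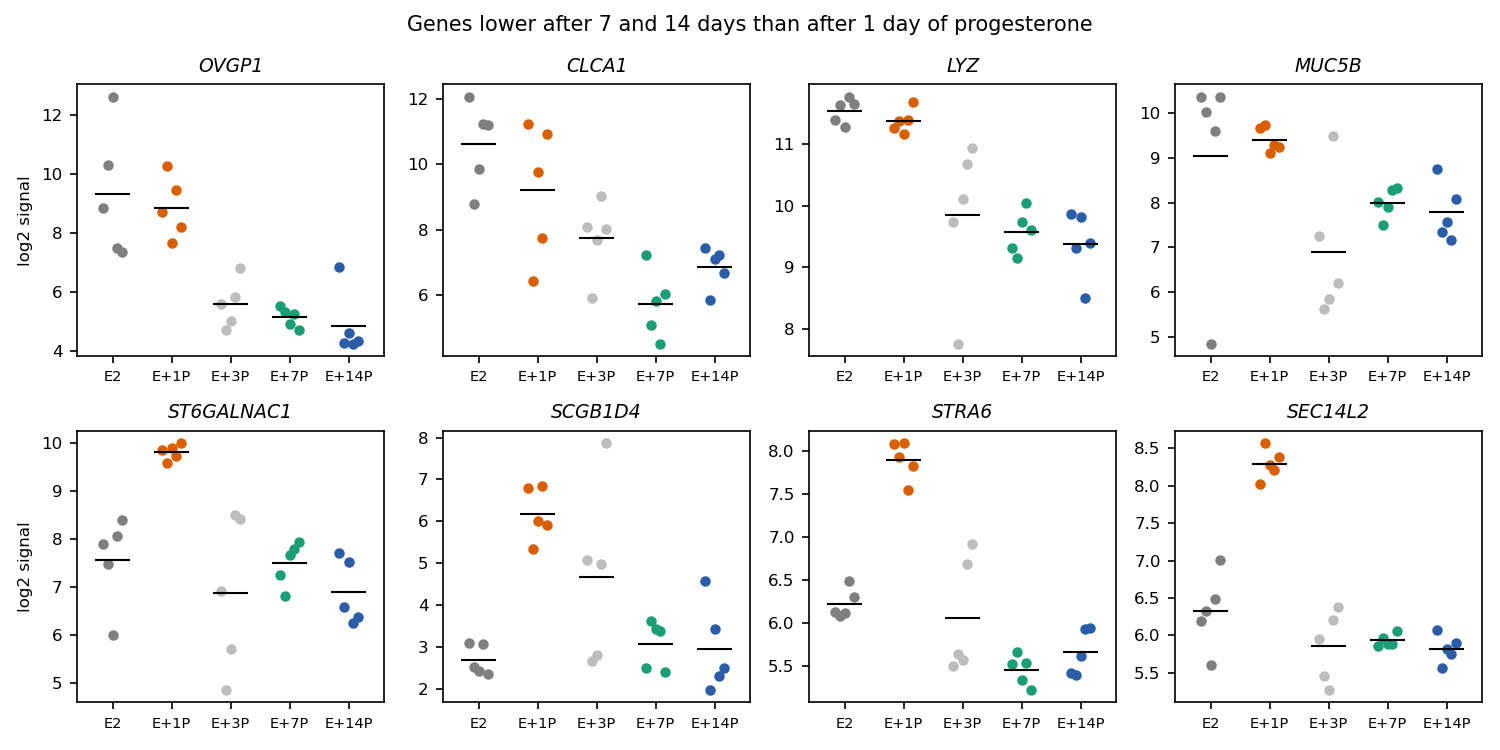
Log2 signal (vertical axis) of 8 genes lower in the late arrays, 1 point per array and a line at the mean of each group, for the 5 groups in order of days of progesterone, E2 first. The E2 means of OVGP1 (9.33) and LYZ (11.55) were near those of E+1P (8.87 and 11.38), and that of CLCA1 was higher (10.63 against 9.22). In SCGB1D4, ST6GALNAC1, STRA6 and SEC14L2 every E+1P array lay above every E2 array. In 7 of the 8 genes, all but CLCA1, no late array reached the lowest E+1P array, against 3.03% of all genes. The choice of genes by this comparison favours such a gap.

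A second set of the largest decreases had a high signal on day 1 and a late signal near or below that of E2; the E2 levels are given as a description, without a test. SCGB1D4 (13648176), a small secreted protein of the secretoglobin family, gave 6.80, 5.33, 6.02, 6.85 and 5.91 in E+1P and 1.97 to 4.58 in the late arrays, with a median of 2.94. Its E2 mean was 2.70 ± 0.36. All E+1P arrays lay above all E2 and late arrays, although 1 E+3P array, at 7.86, lay above them (log2 fold change -3.17, SE 0.39, adjusted p = 0.000134). KRT222 (13679497), a keratin-related gene, lay at 7.84, 7.04, 8.54, 7.36 and 7.63 in E+1P, at 3.90 to 5.81 in the late arrays and at 4.84 ± 0.35 in E2. The KRT222 groups did not overlap, and the log2 fold change was -3.13 (SE 0.30, adjusted p = 1.11e-05).

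SEC14L2 (13608384), a lipid-binding protein that takes part in vitamin E handling and cholesterol synthesis, had the lowest p of the named genes. Its E+1P signals were 8.03, 8.57, 8.28, 8.21 and 8.38, and the late arrays lay within 5.57 to 6.08. The gap between the groups was wider than the whole range within either (log2 fold change -2.42, SE 0.10, adjusted p = 3.16e-09). STRA6 (13781286), the membrane receptor that takes up retinol from its carrier protein, lay at 8.08, 7.93, 8.09, 7.55 and 7.83 in E+1P and at 5.22 to 5.94 in the late arrays. It did not overlap between the groups (log2 fold change -2.34, SE 0.12, adjusted p = 3.8e-08), and its E2 mean was 6.22 ± 0.17. MFSD2A, a transporter of lysophospholipids that carry omega-3 fatty acids, fell from 7.47 ± 0.19 to 5.08 ± 0.37 (adjusted p = 1.75e-07). ACP3, prostatic-type acid phosphatase, fell from 9.52 ± 0.27 to 6.67 ± 0.51 (log2 fold change -2.85, adjusted p = 2.6e-06). For these 4 genes all 10 late arrays lay below every E+1P array, as in 3.03% of all genes, a gap favoured by their choice among the largest decreases.

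The remaining large decreases were of mixed function. RGCC, a regulator of the cell cycle, fell by 2.42 (adjusted p = 4.26e-06). HGD, which acts in the catabolism of tyrosine, fell by 2.36 (SE 0.23, adjusted p = 1.71e-05). PSAT1, an enzyme of serine synthesis, fell by 2.48 (SE 0.35, adjusted p = 0.000417). IL1R2, the decoy receptor that binds interleukin 1 without signalling, fell from 9.77 ± 0.41 to 7.49 ± 0.74 (log2 fold change -2.28, SE 0.33, adjusted p = 0.000548). Its E2 mean was 6.72 ± 1.58, with E2 replicate 3 at 3.96 and an E2 median of 7.09. The IL1R2 call was lost in a fit of all 25 arrays (adjusted p = 0.0762). In each of these 4 genes all late arrays lay below every E+1P array, as in 3.03% of all genes, which their choice by this comparison favours. SLC28A2, a nucleoside transporter, had a log2 fold change of -2.30 (SE 0.62, adjusted p = 0.0356). A late array reached 9.11 for SLC28A2, above the highest E+1P array (8.59). Its call was lost without any single one of 11 arrays, which were the 5 E+1P arrays, E+7P replicates 3 to 5 and E+14P replicates 2, 4 and 5 (highest adjusted p = 0.0846).

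Among the increases, CCL26 (13727633), a chemokine that attracts eosinophils, had the largest fold. Its E+1P signals were 6.03, 8.21, 5.22, 6.24 and 6.84, and the late arrays ran from 5.94 to 10.59 with a median of 10.04. E+14P replicate 4, the array low in ciliated markers, gave the lowest late value and lay within the E+1P range, and the other 9 late arrays lay above every E+1P array. The increase was 7.47-fold (log2 fold change 2.90, SE 0.59, adjusted p = 0.007), and the adjusted p was 0.0594 in a fit of all 25 arrays. E2 arrays had a mean of 6.33 ± 0.94, near that of E+1P.

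TNFSF10 (13706979), the death receptor ligand TRAIL, gave 7.44, 7.71, 7.95, 7.55 and 7.60 in E+1P. The late arrays ran from 9.01 to 10.42 with a median of 9.74. The groups were well separated, by over 1 log2 unit, and the increase was 4.09-fold (log2 fold change 2.03, SE 0.22, adjusted p = 4.78e-05). IL15 (13753798), a cytokine that supports natural killer cells, lay at 5.00, 5.36, 5.58, 5.60 and 5.22 in E+1P and at 6.35 to 7.55 in the late arrays, with a median of 6.67. It did not overlap either (log2 fold change 1.46, SE 0.16, adjusted p = 3.93e-05). The E2 means of TNFSF10 (7.37 ± 0.40) and IL15 (5.39 ± 0.42) were near those of E+1P.

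NT5E (13741500), the enzyme CD73 that makes extracellular adenosine, gave 5.70, 5.82, 5.28, 5.07 and 5.64 in E+1P and 6.54 to 7.98 in the late arrays. All late arrays lay above every E+1P array (log2 fold change 1.78, SE 0.17, adjusted p = 1.16e-05). SCARA3, a scavenger receptor family protein induced by oxidative stress, rose by 1.65 (SE 0.17, adjusted p = 2.28e-05). STC1 (13790844), stanniocalcin, a secreted glycoprotein that rises in decidual stroma, lay at 5.38, 5.59, 4.92, 6.19 and 5.22 in E+1P and at 5.58 to 8.49 in the late arrays, with a median of 7.49. One end of the late range overlapped E+1P, and the increase was 3.72-fold (log2 fold change 1.89, SE 0.37, adjusted p = 0.00545). The E2 mean of STC1 was 7.63 ± 0.86, so E+1P stood below both.

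PIP (13731153), prolactin-induced protein, a secreted protein of glands, gave 8.25, 5.74, 9.37, 8.66 and 6.79 in E+1P and 8.88 to 11.56 in the late arrays, with a median of 10.64. The 2 groups overlapped at E+1P replicate 3, the log2 fold change was 2.59 (SE 0.54, adjusted p = 0.00763), and the call was lost in a fit of all 25 arrays (adjusted p = 0.0833). PIP had an E2 mean of 9.71 ± 2.21, with a wide spread, E2 replicate 3 at 5.82 and an E2 median of 10.35. CLU, the secreted chaperone clusterin, rose by 1.61 (SE 0.30, adjusted p = 0.00395), and TRHDE, a peptidase that degrades thyrotropin-releasing hormone, by 1.67 (SE 0.28, adjusted p = 0.00155). TSPAN7, a membrane tetraspanin, rose by 1.57 (SE 0.30, adjusted p = 0.00455).

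The other large increases were genes of stroma and muscle. COL14A1, a collagen of fibril surfaces, rose by 2.03 (SE 0.44, adjusted p = 0.0103) and ABCC9, a subunit of potassium channels of vascular and smooth muscle, by 1.77 (SE 0.38, adjusted p = 0.00964). ABI3BP, an extracellular matrix protein, rose by 1.60 (SE 0.25, adjusted p = 0.00106), and ADAMTS5 (13726506), a protease that cleaves the proteoglycans aggrecan and versican, by 1.60 (SE 0.21, adjusted p = 0.000295). The E+1P arrays lay between 5.45 and 5.84 for ADAMTS5 and the late arrays between 6.47 and 7.66, without overlap. PGM5, a phosphoglucomutase-like protein of muscle cell junctions, rose by 1.94 (SE 0.50, adjusted p = 0.0278). With the smooth muscle covariate COL14A1 (adjusted p = 0.099) and ABCC9 (0.0581) were no longer called. PGM5 was lost with the columnar covariate (adjusted p = 0.136), in a fit of all 25 arrays (0.0897) and without E+1P replicate 1, 3, 4 or 5 (highest adjusted p = 0.0908). Its lowest log2 fold change under an alternative was 0.697.

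**Figure D2:**
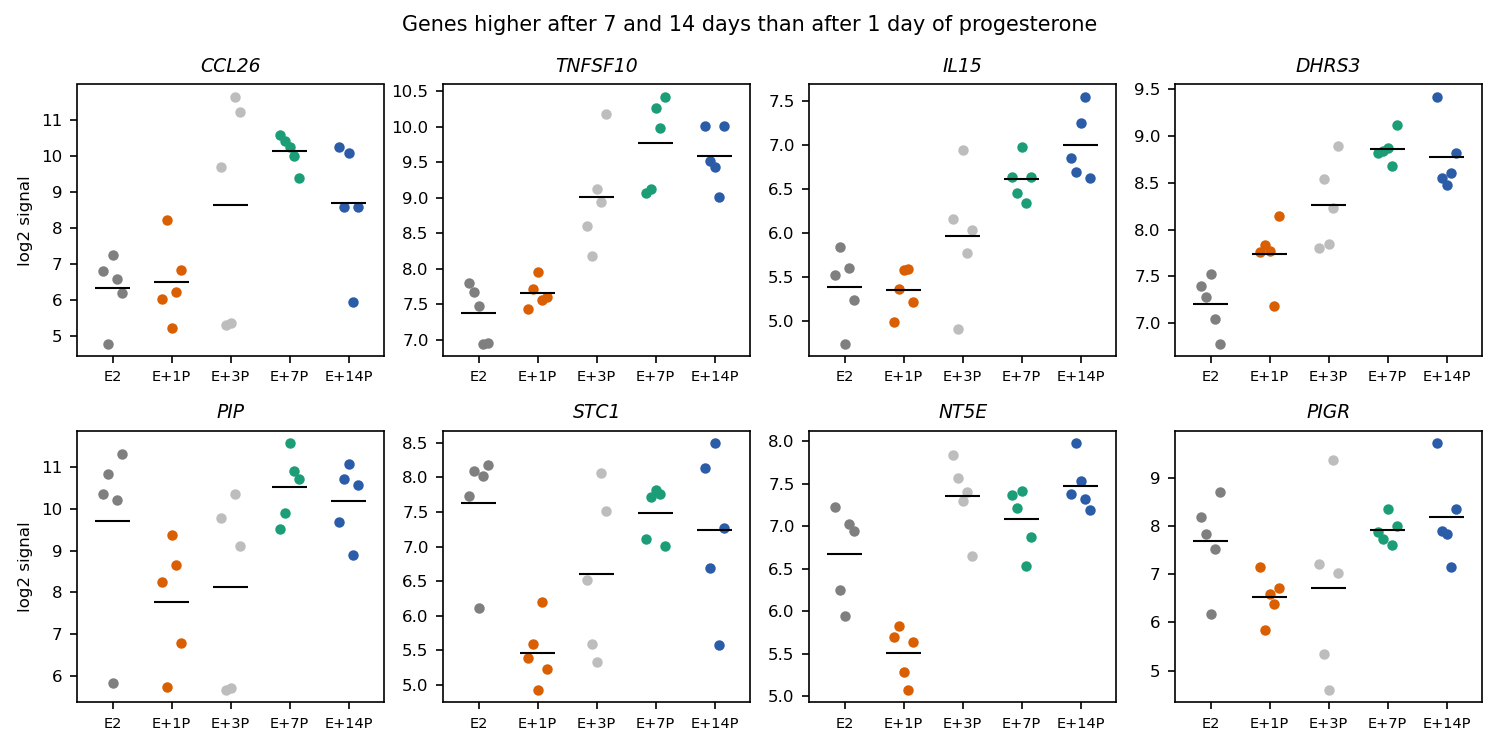
Log2 signal (vertical axis) of 8 genes higher in the late arrays, 1 point per array and a line at the mean of each group, for the 5 groups in order of days of progesterone, E2 first. In TNFSF10, IL15, DHRS3, NT5E and PIGR all 10 late arrays lay above every E+1P array, as in 1.92% of all genes. The choice of genes by this comparison favours such a gap. In CCL26 a single E+14P array lay at the E+1P level.

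**Figure D3:**
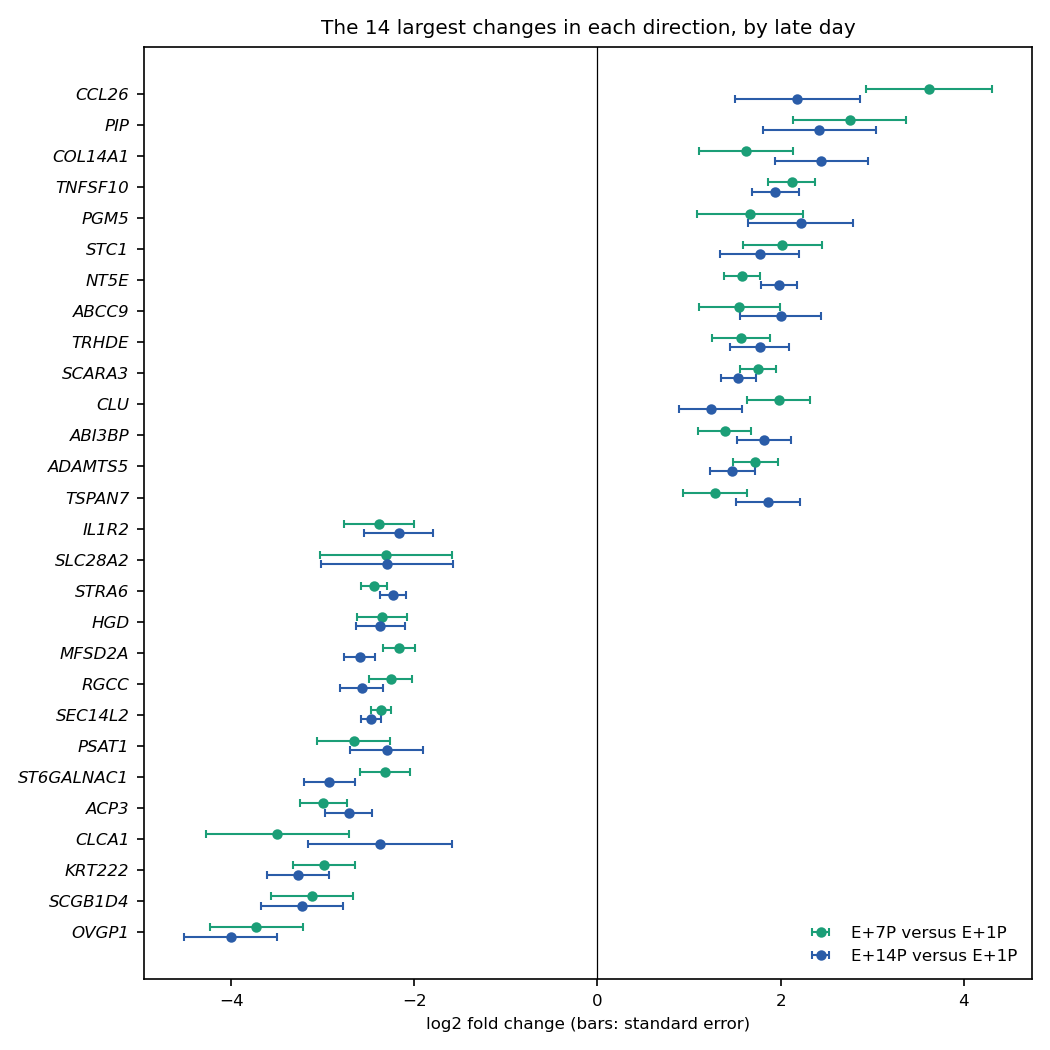
Log2 fold change against E+1P (horizontal axis, bars 1 standard error) of the 14 largest increases and the 14 largest decreases, separately for E+7P (green) and E+14P (blue), each with 5 arrays against the same 5 E+1P arrays. Both late days lay on the same side of 0 for all 28 genes, which the choice of genes by their pooled change favours.

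Of the receptors of the 2 hormones, ESR1 was higher in the late arrays and PGR did not pass the test. PGR (13658473), the progesterone receptor, gave 9.52, 9.82, 9.28, 9.84 and 9.81 in E+1P and 8.79 to 10.36 in the late arrays, with a median of 9.86. The groups overlapped, and the log2 fold change was 0.13 (SE 0.18, adjusted p = 0.767), while all E2 arrays lay higher, at 10.45 to 10.94. ESR1 (13748463), the main estrogen receptor, gave 7.89, 8.15, 8.21, 7.90 and 7.98 in E+1P and 8.23 to 8.99 in the late arrays. It was higher in all 10 late arrays (log2 fold change 0.63, SE 0.11, adjusted p = 0.00247), with an E2 mean of 8.95 ± 0.32. FKBP5 (13745816), a co-chaperone of steroid receptors that progestins and glucocorticoids induce, gave 8.12, 8.13, 8.06, 8.14 and 7.87 in E+1P and 6.76 to 7.88 in the late arrays, with a median of 7.19. It was lower late than on day 1 (log2 fold change -0.85, SE 0.14, adjusted p = 0.00117), with 1 late array just above the lowest E+1P array, and all late arrays lay above the highest E2 array (5.95).

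In the list of steroid receptors and cofactors, 4 of 14 measured members were higher and 1, FKBP5, was lower, against 4.6% and 5.49% of all genes. The median log2 fold change of the list was 0.17. The glucocorticoid receptor NR3C1 rose by 0.34 (adjusted p = 0.0096) and the mineralocorticoid receptor NR3C2 by 0.59 (adjusted p = 0.0153). NCOA2, a coactivator of nuclear receptors, rose by 0.28 (adjusted p = 0.0305). Without E+1P replicate 4 the list had 3 calls and NR3C2 an adjusted p of 0.0531, and in a fit of all 25 arrays 2 members were called. NCOA2 was lost without E+1P replicate 1, 2, 4 or 5 (highest adjusted p = 0.0957) and without E+14P replicates 4 and 5 together (0.0733), and NR3C1 in a fit of all 25 arrays (0.147).

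Of 25 progestin and glucocorticoid response genes, 3 were higher and 1 lower, against 4.6% and 5.49% of all genes, with a median of 0.21. FOXO1 (13685105), a transcription factor of progestin-induced stromal differentiation, rose from 8.77 ± 0.15 to 9.68 ± 0.31 (log2 fold change 0.90, SE 0.13, adjusted p = 0.000572), and all 10 late arrays lay above every E+1P array. IL15 and STC1, given above, were the other 2 that rose, and FKBP5 was the member that fell. The progestin-responsive transcription factors ZBTB16 (log2 fold change 0.46, adjusted p = 0.0859) and HAND2 (0.59, adjusted p = 0.131) did not pass the test. Of 17 estrogen response genes, 2 (ESR1 and the chemokine CXCL12) were higher and 4 lower. CCND1, cyclin D1, which drives entry into the cell cycle, fell by 1.47 (SE 0.12, adjusted p = 4.26e-06), and GREB1, a cofactor of the estrogen receptor, by 0.97 (SE 0.19, adjusted p = 0.00609). OVGP1 and TFF3 were the other 2. CXCL12 (log2 fold change 0.69, adjusted p = 0.0422) was lost with the smooth muscle covariate (adjusted p = 0.363) and without any single one of 11 arrays, which were E+1P replicates 2 to 5, E+7P replicates 1, 4 and 5 plus E+14P replicates 1 to 4 (highest adjusted p = 0.127).

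Secretory proteins pass from the ER to the Golgi in coated vesicles. Of 40 ER to Golgi transport genes, 14 were lower, against 5.49% of all genes, and 0 higher (median log2 fold change -0.22). A log2 fold change below 0 was found in 36. CREB3L1, a membrane-bound transcription factor that raises secretory capacity, fell by 1.11 (adjusted p = 0.00292). The cargo receptors TMED3 (log2 fold change -1.09, SE 0.13, adjusted p = 0.000121) and LMAN1 (-0.58, adjusted p = 0.000641) fell, with ERGIC1, a protein of the ER-Golgi intermediate compartment (-0.98, SE 0.11, adjusted p = 8.1e-05). SEC22B, a SNARE protein of vesicle fusion, fell by 0.63 (SE 0.07, adjusted p = 6.08e-05). Coat subunits had smaller log2 fold changes, -0.27 for SEC31A (adjusted p = 0.00807) and -0.27 for SEC13 (adjusted p = 0.0184). The list mean was 7.94 to 8.10 on the E+1P arrays and 7.66 to 7.90 on the late arrays, without overlap. Without E+1P replicate 1, 9 members were called, as many as with the smooth muscle covariate.

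Of 34 genes of ER folding and translocation, 12 were lower, against 5.49% of all genes, and 0 higher (median -0.19). Subunits of the translocon through which secretory proteins enter the ER were among them, SEC61B at -0.55 (SE 0.08, adjusted p = 0.000536), SEC62 at -0.53 (adjusted p = 0.00054) and SEC61G at -0.53 (adjusted p = 0.00377). The reductase DNAJC10, which removes wrong disulfide bonds, fell by 0.56 (SE 0.06, adjusted p = 6.4e-05), and the disulfide isomerase PDIA6 by 0.31 (adjusted p = 0.0201). The list mean was 8.55 to 8.70 in E+1P, 8.24 to 8.53 in the late arrays and higher in E2, at 8.86 to 9.11. Without E+1P replicate 3 or 5, 7 members were called, and 7 in a fit of all 25 arrays.

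Of 38 N-glycosylation genes, 8 were lower, against 5.49% of all genes, and 0 higher (median -0.10). GFPT1, the enzyme that starts the synthesis of the amino sugars used for glycans, fell by 0.88 (SE 0.08, adjusted p = 1.06e-05), with no overlap between late arrays (8.54 to 8.97) and E+1P (9.41 to 9.85). Subunits of the oligosaccharyltransferase, which attaches glycans to proteins in the ER, fell as well, TUSC3 by 0.92 (adjusted p = 0.00342), DAD1 by 0.46 (adjusted p = 0.00964) and RPN1 by 0.42 (adjusted p = 0.00168). ALG5, an enzyme that supplies glucose for the glycan precursor, fell by 0.49 (adjusted p = 0.00238). All 10 late arrays lay below every E+1P array in 7 of the 38 members, against 3.03% of all genes, and the list means overlapped (7.26 to 7.36 in E+1P, 7.08 to 7.27 in the late arrays). With the smooth muscle covariate 5 members were called.

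Of 30 measured subunits of the respiratory chain, 29 had a log2 fold change below 0 (median -0.24). The test called 11 lower, against 5.49% of all genes, and 0 higher. They belonged to complex I (NDUFA1, log2 fold change -0.76, SE 0.14, adjusted p = 0.00309; NDUFB3, -0.50, adjusted p = 0.00149), complex III (UQCRQ, -0.41, adjusted p = 0.00349) and complex IV (COX5A, -0.51, adjusted p = 0.00264; COX4I1, -0.50, SE 0.08, adjusted p = 0.00102). The list mean was 9.13 to 9.32 on the E+1P arrays and 8.80 to 9.08 on the late arrays, without overlap, and 9.30 to 9.54 in E2. With the smooth muscle or the columnar covariate 7 members were called. Of 51 mitochondrial ribosome genes, 7 were lower and 0 higher (median -0.10), and the list means of the groups overlapped (7.07 to 7.20 in E+1P, 6.93 to 7.10 in the late arrays). The ribosomal proteins MRPS33 (log2 fold change -0.88, SE 0.10, adjusted p = 0.000101) and MRPL33 (-0.87, adjusted p = 0.00189) changed most. The count was 4 without E+1P replicate 3 or 4, 3 without E+1P replicate 5 and 3 with the smooth muscle covariate. In the proteasome, which degrades tagged proteins, 2 of 30 genes were lower, near the 5.49% of all genes, and 0 higher (median -0.04). They were the assembly factor POMP (lower by 0.23, adjusted p = 0.0059) and the catalytic subunit PSMB5. The PSMB5 call (log2 fold change -0.39, adjusted p = 0.0343) was lost without E+1P replicate 1, 3, 4 or 5 or E+7P replicate 1, 2 or 5 (highest adjusted p = 0.107).

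**Figure D4:**
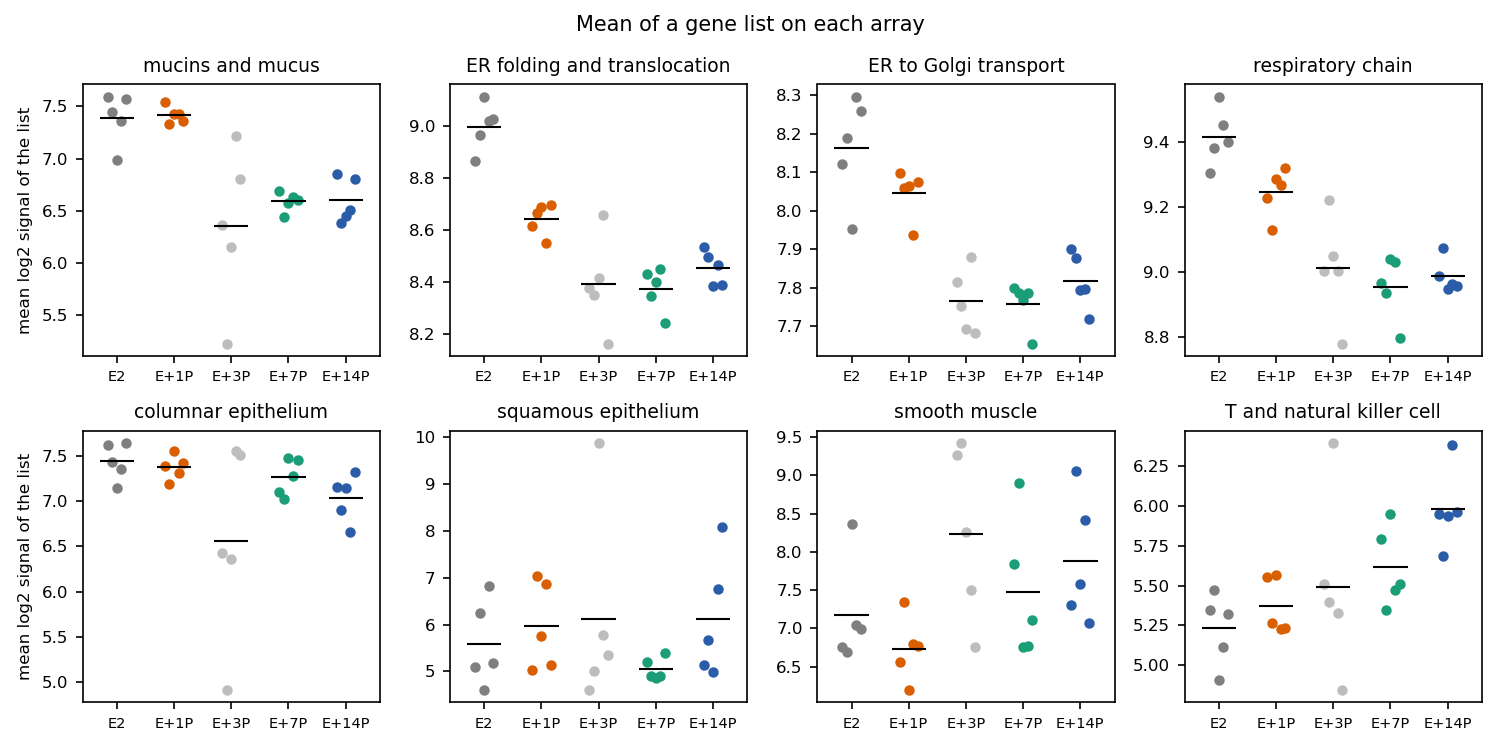
Mean log2 signal of 8 gene lists on each array (vertical axis), 1 point per array and a line at the mean of each group. For mucins, ER folding, ER to Golgi transport and the respiratory chain no late array reached the lowest E+1P array, whereas the squamous, columnar, smooth muscle and T and natural killer cell lists overlapped between the groups. The gap was narrow for ER folding (lowest E+1P 8.548, highest late 8.533). It was also narrow for ER to Golgi transport (7.938 and 7.902) and the respiratory chain (9.128 and 9.075). The lists were chosen with earlier results of these data known, which favours such a gap.

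Epithelial markers changed in a few members. Of 21 columnar epithelium genes, 3 were lower and 1 higher (median -0.34), against 5.49% and 4.6% of all genes. TSPAN8, a tetraspanin of glandular epithelium, fell from 8.69 to 9.29 over the E+1P arrays to a late median of 7.36 (log2 fold change -1.73, SE 0.34, adjusted p = 0.00544). PIGR (13589100), the receptor that carries immunoglobulin A across epithelium, rose, with 7.15, 5.84, 6.60, 6.39 and 6.71 in E+1P and 7.16 to 9.72 in the late arrays. The lowest late array lay just above the highest E+1P array for PIGR, and its increase on the log2 scale was 1.52 (SE 0.31, adjusted p = 0.00763). The splicing regulator ESRP1 (log2 fold change -0.57, adjusted p = 0.026) and keratin KRT7 (-0.46, adjusted p = 0.0407) were the other 2 that fell, and TSPAN8, ESRP1 and KRT7 were not called with the smooth muscle covariate (adjusted p = 0.0677, 0.25 and 0.288). ESRP1 was lost without E+1P replicate 3 or 4 (highest adjusted p = 0.0882) and KRT7 without any single one of 11 arrays, E+1P replicates 1, 2, 4 and 5, E+7P replicates 1, 2 and 4 plus E+14P replicates 1 to 4 (highest adjusted p = 0.128). In a fit of all 25 arrays PIGR had an adjusted p of 0.12 and the list 1 call, and without E+14P replicate 5 it had 7 calls, without E+1P replicate 4 it had 2.

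Of 24 ciliated cell genes, 3 were lower, against 5.49% of all genes, and 0 higher, and 23 had a log2 fold change below 0 (median -0.39). FOXJ1, the main transcription factor of motile cilia, fell by 0.40 (SE 0.08, adjusted p = 0.00536), and CDC20B, a gene of the multiciliated cell program, by 0.74 (SE 0.15, adjusted p = 0.00725). CDC20B was dim, with means of 5.02 in E+1P and 4.28 in the late arrays, under the median of all probe set means (5.54). CAPS, a calcium-binding protein of ciliated cells, had a log2 fold change of -0.58 (adjusted p = 0.0241). Without E+14P replicates 4 and 5, which include the array low in ciliated markers, 4 members were lower, and with arrays centred on their median 5. CAPS was lost without E+1P replicate 3 or 5 (highest adjusted p = 0.0848), and CAPS (0.122) and FOXJ1 (0.109) in a fit of all 25 arrays. Taken singly, E+7P had 0 ciliated members called (median -0.18), and E+14P, which includes the array low in ciliated markers, had 5 lower (median -0.675). Between E+14P and E+7P 0 members were called. FOXJ1 had a log2 fold change of -0.24 on E+7P (adjusted p = 0.186) and -0.56 on E+14P (adjusted p = 0.00172), and it was not called between the 2 days (adjusted p = 0.771). Of 19 squamous genes 0 were called, and 3 were lower without E+14P replicates 4 and 5. Of 31 cell junction genes, 2 were higher and 1 lower (median -0.09), near the 10.1% called of all genes. The claudin CLDN11 rose by 0.81 (SE 0.17, adjusted p = 0.0076), while the tight junction proteins TJP3 (0.40, adjusted p = 0.042) and MARVELD3 (-0.66, adjusted p = 0.0266) passed with less margin. The list had 1 call without E+1P replicate 1, 3 or 4 and 5 without E+14P replicate 1. MARVELD3 was lost without E+1P replicate 1, 3 or 4 (highest adjusted p = 0.0869), and TJP3 without any single array but E+1P replicate 5, E+7P replicates 1 and 2 plus E+14P replicate 1 (0.113).

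Of 31 ion and water transport genes, 3 were lower and 1 higher (median 0.06, and -0.09 without E+14P replicates 4 and 5). Of all genes 10.1% were called. Carbonic anhydrase CA2, which makes bicarbonate, fell by 1.73 (SE 0.24, adjusted p = 0.000383), and ATP1B1, the beta subunit of the sodium pump, by 1.21 (SE 0.13, adjusted p = 4.5e-05). In both genes all 10 late arrays lay below every E+1P array. The third was the sulfate transporter SLC26A2 (-0.43, adjusted p = 0.0443), which was lost without any single array but E+1P replicate 1, E+7P replicates 4 and 5 plus E+14P replicate 5 (highest adjusted p = 0.125). SLC12A2, the sodium, potassium and chloride transporter that loads epithelial cells with chloride, rose by 0.74 (SE 0.16, adjusted p = 0.012, and 0.0991 in a fit of all 25 arrays). The chloride channel CFTR (log2 fold change -0.37, adjusted p = 0.653) and the aquaporin AQP5 (-0.10, adjusted p = 0.881) did not pass the test.

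Defence and immune genes moved in both directions. LYZ (13619325), lysozyme, an antibacterial enzyme of gland cells and macrophages, gave 11.27, 11.38, 11.17, 11.40 and 11.69 in E+1P and 8.50 to 10.04 in the late arrays, with a median of 9.50. The groups were over 1 log2 unit apart (log2 fold change -1.91, SE 0.19, adjusted p = 2.19e-05), and the E2 mean was 11.55 ± 0.20. Of 24 epithelial defence genes, 3 were lower (LYZ, the protease inhibitor SERPINA1 and the bacterial sensor TLR2) and 2 higher (PIGR and the viral RNA sensor TLR3). The median was 0.12, and 5.49% of all genes were lower and 4.6% higher. SERPINA1 fell by 1.46 (SE 0.20, adjusted p = 0.000362), TLR2 by 1.31 (SE 0.28, adjusted p = 0.00944), and TLR3 rose by 0.82 (SE 0.19, adjusted p = 0.014). The antiproteases SLPI (log2 fold change -0.48, adjusted p = 0.148) and PI3 (-0.86, adjusted p = 0.228) did not pass the test. Without E+14P replicates 4 and 5 the list had 4 members higher and 4 lower. TLR2 was lost with the smooth muscle (adjusted p = 0.11) or columnar (0.0642) covariate.

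Of 34 cytokine and chemokine genes, 7 were higher, against 4.6% of all genes, and 0 lower (median 0.22). Besides TNFSF10, IL15 and CXCL12, these were the chemokine CXCL14, the alarmin IL33, the interleukin 1 receptor IL1R1 and the macrophage growth factor CSF1. CXCL14 rose by 1.32 (SE 0.28, adjusted p = 0.00902), IL33 by 1.26 (SE 0.25, adjusted p = 0.006) and IL1R1 by 1.00 (SE 0.18, adjusted p = 0.00295). All 10 late arrays lay above every E+1P array for CXCL14 and IL1R1, whereas for IL33 E+14P replicate 4 lay below the E+1P range. The signalling receptor IL1R1 was thus higher and the decoy receptor IL1R2 lower. CSF1 (log2 fold change 0.61, adjusted p = 0.0167) did not hold without E+1P replicate 4 (adjusted p = 0.0528), and CXCL14 in a fit of all 25 arrays (0.0786) and with the columnar covariate (0.0531).

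In the interferon response list 4 of 27 genes were higher and 2 lower (median 0.24), against 4.6% and 5.49% of all genes. The GTPase GBP1 rose by 0.85 (SE 0.11, adjusted p = 0.000207), the transcription factor IRF1 by 0.80 (SE 0.14, adjusted p = 0.0021), and the helicases DDX60 by 0.80 (adjusted p = 0.00582) and IFIH1 by 0.45 (adjusted p = 0.0168). The exonuclease ISG20 fell by 1.70 (SE 0.27, adjusted p = 0.00107). MX1 (log2 fold change -0.16, adjusted p = 0.751), ISG15 (0.64, adjusted p = 0.279) and IFI6 (-0.03, adjusted p = 0.938), further interferon targets of the list, did not pass the test. IFIH1 was lost without E+1P replicate 4 or 5 (highest adjusted p = 0.0582). HERC6 (log2 fold change -0.45, adjusted p = 0.0335) was lost without any single one of 7 arrays, E+1P replicates 1 to 4, E+7P replicates 2 and 5 plus E+14P replicate 2 (highest adjusted p = 0.0971).

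T and natural killer cell genes had 3 of 22 members higher, against 4.6% of all genes, and 0 lower, and 21 log2 fold changes above 0 (median 0.35). The granule protease GZMK rose by 1.26 (SE 0.21, adjusted p = 0.00176), from 6.28 to 6.99 over the E+1P arrays to 6.97 to 8.53 in the late arrays, and the granule protein NKG7 by 0.87 (SE 0.18, adjusted p = 0.00771). EOMES, a transcription factor of cytotoxic cells, had a log2 fold change of 0.54 (adjusted p = 0.0391). Its call was lost without any single one of 9 arrays (highest adjusted p = 0.109). These were E+1P replicates 2 to 5, E+7P replicates 2 and 3 plus E+14P replicates 1, 3 and 4. The EOMES call was also lost with quantile normalization (adjusted p = 0.0505), the late arrays as 1 group (0.109) and the squamous (0.0569), smooth muscle (0.147) or columnar (0.175) covariate. On E+7P EOMES (0.25, adjusted p = 0.537) and NKG7 (0.56, adjusted p = 0.177) were not called. On E+14P EOMES (0.83, adjusted p = 0.00958) and NKG7 (1.18, adjusted p = 0.00324) were. Between E+14P and E+7P neither was called (adjusted p = 0.771 for each). The T cell receptor component CD3G had a log2 fold change of 0.86 (adjusted p = 0.0857) and CD8A one of 0.18 (adjusted p = 0.622). The list mean was 5.23 to 5.57 in E+1P, 5.35 to 5.95 in E+7P and 5.68 to 6.38 in E+14P. In a fit of all 25 arrays 1 member was called, and GZMK had an adjusted p of 0.0774.

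Of 23 myeloid genes, LYZ was lower and CD74, the invariant chain of class II antigen presentation, higher by 0.72 (SE 0.12, adjusted p = 0.00168; median of the list 0.16). Of 15 B and plasma cell genes, CD38 alone was called, higher by 0.50 (adjusted p = 0.0495), with a list median of 0.12. CD38 was dim, with means of 4.465 in E+1P and 4.961 in the late arrays. Its log2 fold change was 0.09 on E+7P (adjusted p = 0.867), where 1 array lay below every E+1P array, and 0.90 on E+14P (adjusted p = 0.0043). Between E+14P and E+7P CD38 was not called (adjusted p = 0.435). The pooled CD38 call was lost without any single one of 12 arrays, which were all but E+7P replicate 5 and E+14P replicates 2 and 5 (highest adjusted p = 0.12). Neutrophil and mast cell genes (0 of 15 called, median -0.02), blood genes (0 of 9, median -0.05) and genes of fat, nerve and skeletal muscle (0 of 19, median -0.05) had no call. Over all genes 10.1% were called, the background for each list of this paragraph.

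All 22 smooth muscle genes had a log2 fold change above 0, with a median of 1.04, and 2 were called, against 10.1% of all genes. These were the actin-binding proteins TPM1 (1.13, SE 0.29, adjusted p = 0.027) and LMOD1 (1.22, SE 0.34, adjusted p = 0.0395). The actin ACTA2 (1.23, adjusted p = 0.0717), the intermediate filament protein DES (1.68, adjusted p = 0.17) and the heavy chain MYH11 (1.26, adjusted p = 0.263) did not pass the test. Neither call held without E+1P replicate 1, 3, 4 or 5, and LMOD1 also ended without E+1P replicate 2, E+7P replicate 1 or E+14P replicate 2 or 4 (highest adjusted p 0.0823 for TPM1 and 0.116 for LMOD1). The columnar covariate ended the calls of TPM1 (adjusted p = 0.134) and LMOD1 (0.184). LMOD1 was also lost with the smooth muscle (0.0977) or squamous (0.0535) covariate and without E+14P replicates 4 and 5 together (0.0526). The smooth muscle covariate is the mean of this list, LMOD1 and TPM1 included, so it cannot serve as a separate check of these genes. The lowest log2 fold change under an alternative was 0.398 for TPM1 and 0.384 for LMOD1. The list had 4 calls without E+7P replicate 3 or E+14P replicate 5, and 0 in a fit of all 25 arrays.

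Of 17 fibroblast genes, 4 were higher, against 4.6% of all genes, and 0 lower (median 0.52). The list mean was 7.02 to 7.89 on the E+1P arrays and 7.55 to 8.70 on the late arrays, with overlap. The sialomucin CD34 rose by 0.61 (SE 0.12, adjusted p = 0.00427) and ISLR, a secreted protein of mesenchymal cells, by 0.48 (adjusted p = 0.0141), while the matrix protein FBLN1 (0.95, adjusted p = 0.0328) and the protease FAP (1.05, adjusted p = 0.0437) passed with less margin. Of 27 collagen genes 2 were higher and 0 lower (median 0.30), COL14A1 and the crosslinking enzyme LOXL1 (0.71, SE 0.16, adjusted p = 0.0135). The fibrillar collagens did not pass the test, with 0.09 for COL1A1 (adjusted p = 0.916) and 0.42 for COL3A1 (adjusted p = 0.306). With the smooth muscle covariate 1 of the fibroblast genes was called and the collagen median was -0.04. CD34 was lost in a fit of all 25 arrays (adjusted p = 0.0542). The smooth muscle covariate ended the calls of ISLR (adjusted p = 0.149), FBLN1 (0.3), FAP (0.374) and LOXL1 (0.11), and the fibroblast list had 2 calls without E+1P replicate 1, 3 or 4 or E+7P replicate 2. FBLN1 was lost without E+1P replicates 1 to 4, E+7P replicate 2 or E+14P replicate 3 (highest adjusted p = 0.103), and FAP without any single array but E+1P replicate 5, E+7P replicates 3 and 5 plus E+14P replicate 5 (0.13).

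Of 33 matrix remodelling genes, 7 were higher and 2 lower (median 0.19), against 4.6% and 5.49% of all genes. The metalloproteinase MMP14, which activates other proteases at the cell surface, rose by 0.58 (SE 0.09, adjusted p = 0.000594). The inhibitor TIMP2, its partner, rose from 8.29 to 9.23 over the E+1P arrays to 9.20 to 9.93 in the late arrays (log2 fold change 0.99, SE 0.15, adjusted p = 0.000779), and the inhibitor TIMP1 fell by 0.96 (SE 0.17, adjusted p = 0.00213), with no overlap. ADAMTS1, a protease of the ADAMTS5 family, rose by 0.90 (adjusted p = 0.015), and BGN, the proteoglycan biglycan, fell by 0.57 (adjusted p = 0.0142). TNC, the matrix protein tenascin C, had a log2 fold change of 1.33 (SE 0.33, adjusted p = 0.0243), and versican, VCAN, one of 1.00 (adjusted p = 0.0537). Without E+1P replicate 3, 5 members were called, as many as with the smooth muscle covariate. TNC was lost with that covariate (adjusted p = 0.188) and without E+1P replicate 1, 3 or 5 (highest adjusted p = 0.0779).

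Growth factor genes had 7 of 36 members higher, against 4.6% of all genes, and 0 lower (median 0.25). Their list mean was 5.86 to 6.03 on the E+1P arrays and 6.09 to 6.45 on the late arrays. IGFBP3 (13728096), which binds insulin-like growth factors, gave 8.36, 7.93, 8.21, 8.14 and 8.49 in E+1P and 8.82 to 9.91 in the late arrays. No late array reached down to E+1P for IGFBP3 (log2 fold change 1.15, SE 0.14, adjusted p = 0.000118). TGFB3, a transforming growth factor, rose by 1.03 (SE 0.16, adjusted p = 0.00101) and NRG1, a ligand of ERBB receptors, by 0.83 (SE 0.16, adjusted p = 0.00449). The stromal factors that act on epithelium, FGF7 (1.22, adjusted p = 0.032) and FGF10 (0.82, adjusted p = 0.0264), rose with less margin. The count was 3 without E+1P replicate 3 or 4, 4 without replicate 2 or 5, 3 with the smooth muscle covariate and 2 in a fit of all 25 arrays. FGF7 (adjusted p = 0.292) and FGF10 (0.244) were lost with the smooth muscle covariate, and NRG1 with all 25 arrays (0.0842). FGF7 was also lost without E+1P replicate 3, 4 or 5, E+7P replicate 1 or E+14P replicate 2 or 4 (highest adjusted p = 0.0966), and FGF10 without E+1P replicate 2, 3, 4 or 5 (0.0771).

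Among hormone-handling genes, retinoid and thyroid genes had 3 of 20 members lower and 2 higher (median 0.05), against 5.49% and 4.6% of all genes. Besides STRA6, the retinol dehydrogenase DHRS9 (-1.12, SE 0.27, adjusted p = 0.018) and DIO3, the deiodinase that inactivates thyroid hormone (-0.64, SE 0.13, adjusted p = 0.0073), were lower. RDH10, which oxidizes retinol to retinal, rose by 0.88 (SE 0.13, adjusted p = 0.000797) and DHRS3, which turns retinal back into retinol, by 1.08 (SE 0.16, adjusted p = 0.000557). All late arrays lay above every E+1P array for both RDH10 and DHRS3. ALDH1A3, one of the enzymes that make retinoic acid (-0.27, adjusted p = 0.529), and the activating deiodinase DIO2 (-0.11, adjusted p = 0.821) did not pass the test. DHRS9 was lost without E+1P replicate 2 or 3 (highest adjusted p = 0.0646), and DHRS9 (0.168) and DIO3 (0.0595) with all 25 arrays. The smooth muscle covariate ended both calls (0.1 and 0.0569).

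Of 18 sterol and steroid genes 3 were lower and 0 higher (median -0.05), against 5.49% and 4.6% of all genes. The 3 were the hydroxysteroid dehydrogenases AKR1C1 (-1.10, SE 0.23, adjusted p = 0.00719) and HSD17B8 (-0.70, SE 0.09, adjusted p = 0.000317) and the fatty acid desaturase SCD (-0.91, adjusted p = 0.00798). Of 18 prostaglandin genes 4 were lower and 1 higher (median 0.00). PLA2G4A, the phospholipase that releases arachidonic acid, fell by 1.21 (SE 0.15, adjusted p = 0.000169), and ABCC4, which exports prostaglandins, by 0.69 (SE 0.13, adjusted p = 0.00396). AKR1C1 was another that fell, and the cyclooxygenase PTGS1 (-0.55, adjusted p = 0.0298) and the receptor PTGER4 (0.55, adjusted p = 0.0361) completed the list. The count of 5 was 3 without E+1P replicate 1, 3 or 4 or E+7P replicate 1, settings that each ended the PTGS1 call (highest adjusted p = 0.0936). PTGER4 was lost without E+14P replicates 4 and 5 together (adjusted p = 0.0828) and without any single one of 10 arrays, the 5 E+1P arrays, E+7P replicates 1 and 5 plus E+14P replicates 1, 4 and 5 (highest adjusted p = 0.114). With the smooth muscle covariate AKR1C1 (adjusted p = 0.0513) and SCD (0.063) were lost, and ABCC4 in a fit of all 25 arrays (0.0544).

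In cell division 1 of 25 genes, CENPE, a motor protein of chromosome alignment, was lower (-0.81, adjusted p = 0.0198), with 21 log2 fold changes below 0 (median -0.16). CENPE was dim, with means of 4.498 in E+1P and 3.685 in the late arrays. Of all genes 5.49% were lower and 4.6% higher, the background for each list of this paragraph. CENPE was lost without E+1P replicate 4 or 5 (highest adjusted p = 0.0688), and with the smooth muscle (0.154) or columnar (0.0982) covariate, and the list had 2 calls without E+1P replicate 3 or E+14P replicate 4. BTG2 (13601971), an antiproliferative gene of the immediate early list, was lower on all 10 late arrays (7.15 to 7.88) than on every E+1P array (8.96 to 9.25), with a log2 fold change of -1.58 (SE 0.08, adjusted p = 1.97e-08). BTG2 was the 1 called member among 19 (median -0.05), and the list had 3 calls without E+1P replicate 4 and 2 without E+14P replicate 5. Of 15 clock genes, the repressors BHLHE41 (1.11, SE 0.22, adjusted p = 0.0058) and NFIL3 (1.18, SE 0.25, adjusted p = 0.00839) were higher and 0 lower (median 0.03). Of 13 KLF transcription factors, KLF7 (0.90, SE 0.16, adjusted p = 0.0023) and KLF3 (0.33, adjusted p = 0.00487) were higher and 0 lower (median -0.06). NFIL3 was lost with the smooth muscle covariate (adjusted p = 0.0924) and KLF3 with all 25 arrays (0.0707).

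In the Wnt pathway 1 of 43 genes, the receptor LGR4, was lower (-0.39, adjusted p = 0.0403; median 0.06), and in endothelium 1 of 17, the receptor ENG, was higher (0.33, adjusted p = 0.048; median 0.06). Either call was lost without many single arrays, LGR4 without E+1P replicates 3 to 5, each E+7P array or E+14P replicates 2 to 4 (highest adjusted p = 0.122), and ENG without any but E+1P replicate 2 and E+14P replicate 5 (0.147). Of 12 genes known from endometrium and oviduct, 2 were lower and 0 higher (median -0.09), OVGP1 and SCGB1D4. Over all genes 5.49% were lower and 4.6% higher, the background for each list of this paragraph. The decidual products PAEP (0.82, adjusted p = 0.17), PRL (0.03, adjusted p = 0.927) and IGFBP1 (0.43, adjusted p = 0.684) did not pass the test.

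**Figure D5:**
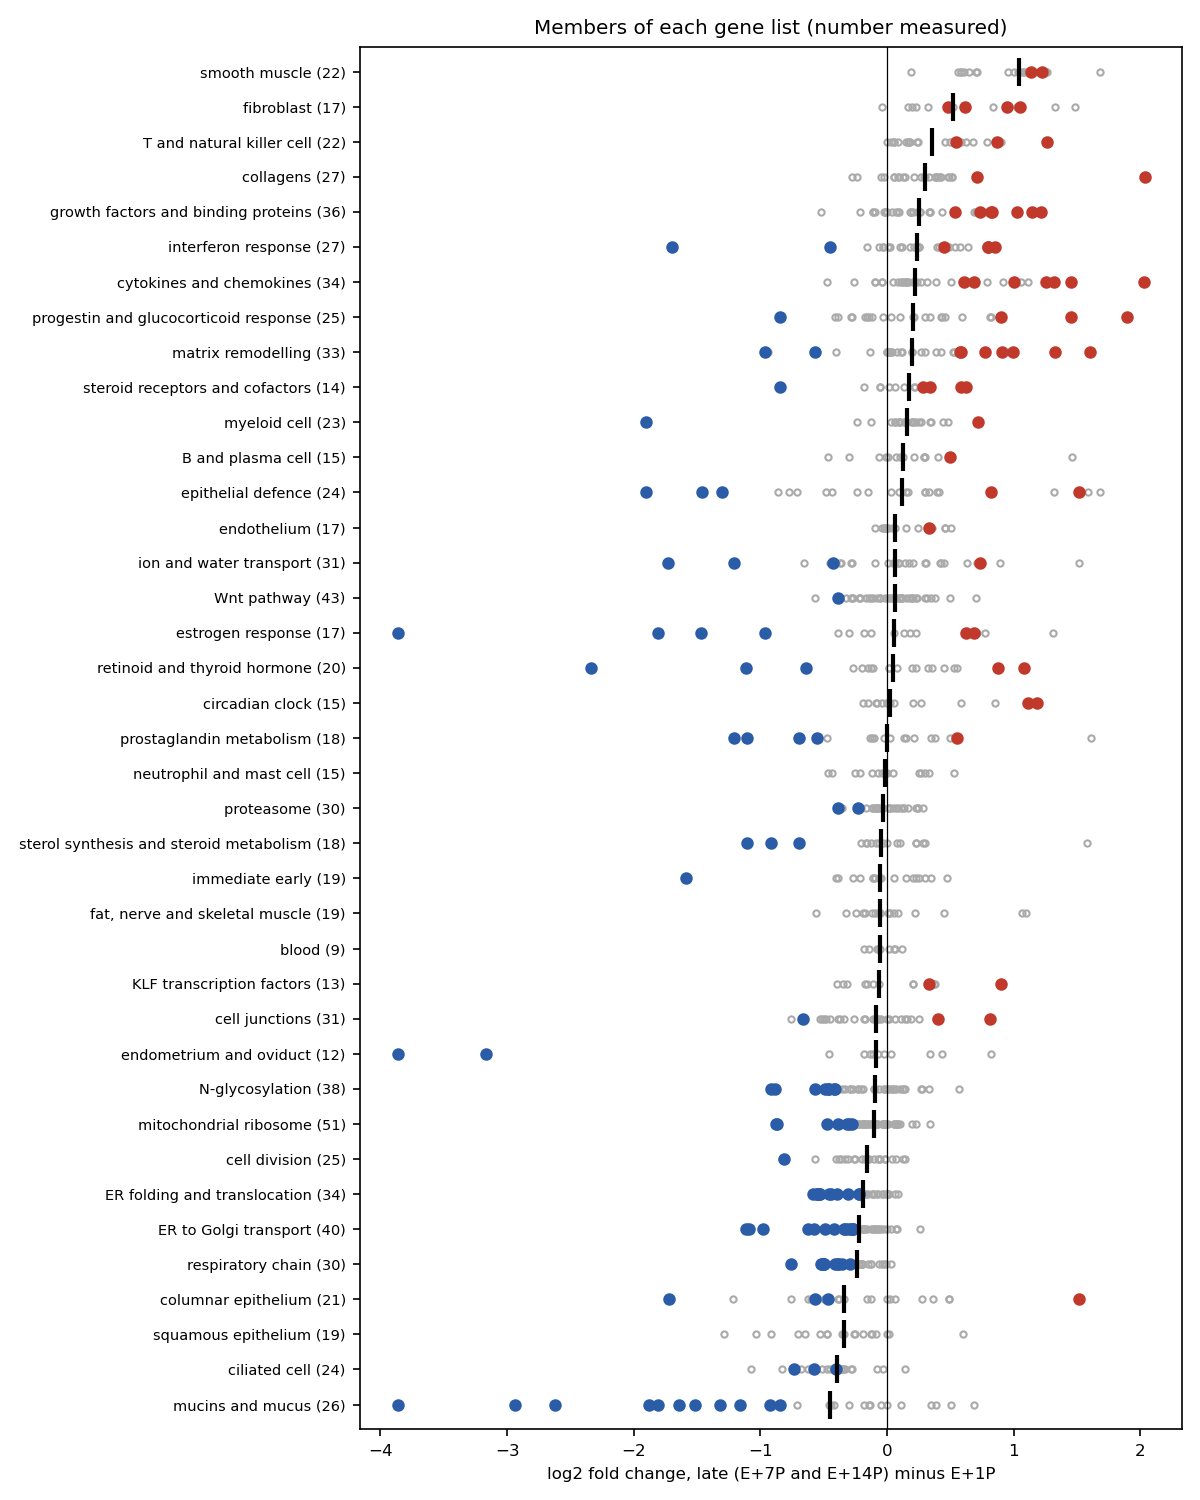
Log2 fold change, late arrays minus E+1P (horizontal axis), of every measured member of 39 gene lists, ordered by the median (black tick), with called members in red (higher) or blue (lower) and the others as open grey circles. Mucin, ciliated, respiratory chain and ER to Golgi lists lay mostly left of 0 and smooth muscle, fibroblast and T cell lists mostly right of it, and smooth muscle had 2 called members of 22.

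Taken singly, each late day differed from E+1P, and the 2 comparisons share the same 5 E+1P arrays. E+7P differed in 894 genes (5.76%), 348 higher (2.24%) and 546 lower (3.51%), and in 3.95% of all probe sets. E+14P differed in 1255 genes (8.08%), 545 higher (3.51%) and 710 lower (4.57%), and in 5.43% of all probe sets. OVGP1 had log2 fold changes of -3.73 on E+7P (adjusted p = 0.000599) and -4.00 on E+14P (adjusted p = 0.000237), and TNFSF10 of 2.12 (adjusted p = 0.000227) and 1.94 (adjusted p = 0.000375). CCL26 had 3.62 on E+7P (adjusted p = 0.00664) and 2.18 on E+14P (adjusted p = 0.08), and CLU 1.98 (adjusted p = 0.00406) and 1.24 (adjusted p = 0.0512). GZMK had 0.97 on E+7P (adjusted p = 0.0376) and 1.55 on E+14P (adjusted p = 0.00148), and TSPAN8 -1.27 (adjusted p = 0.0911) and -2.18 (adjusted p = 0.00378). Of the mucin list, 10 members were lower on E+7P and 8 on E+14P, and of the ER to Golgi list 11 and 8. For the respiratory chain these counts were 8 and 9, and for matrix remodelling 4 and 7 members were higher.

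The 2 late days were not told apart. Between E+14P and E+7P, limma called 0 of 15534 genes (0%), and the lowest adjusted p was 0.432, while 938 genes had an unadjusted p under 0.05. The 5 genes with the lowest p were SAAL1, CHKA, PHYH, MTSS1 and BTG2. CHKA, choline kinase, which starts the synthesis of phosphatidylcholine, was lower on E+14P than on E+7P by a log2 difference of -0.82 (SE 0.15, adjusted p = 0.432). PHYH, a peroxisomal enzyme that breaks down phytanic acid, was higher by 0.72 (SE 0.13, adjusted p = 0.432), and BTG2 lower by a log2 difference of -0.42 (SE 0.09, adjusted p = 0.49). SAAL1, named for its likeness to serum amyloid A (0.52, SE 0.09, adjusted p = 0.432), and MTSS1, an actin regulator (0.67, SE 0.14, adjusted p = 0.49), had higher means on E+14P. A difference that misses the threshold does not show that the days were alike.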

How the data were processed

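RNA of 25 cervix samples was read on Affymetrix arrays, after amplification with a whole-transcript kit and biotin labelling per the labels' protocols. The deposited table holds log2 signals, a unit read from its values (0.618 to 13.69, none missing). Affymetrix Expression Console was used per the submitters' processing notes. The way probes were summarized is, like version and normalization, not given in the sources used here. After sorting, each array's values lay within 0.29 of the average over arrays. The table used here holds no background or detection values, so signal over background is unknown. Gene symbols came from the platform annotation, and genome positions were not used here. In it 490 of 40489 probe sets had several symbols and 23979 none.

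Groups followed the labels. The p-values measure the spread between the samples of a group. limma 3.58.1 in R 4.3.3 was fitted on the 15 arrays with 1 coefficient per group and a variance trend (12 residual degrees of freedom, median prior 3.28). The contrast was the mean of E+7P and E+14P minus E+1P, 2-sided, adjusted by Benjamini and Hochberg over 40489 probe sets, threshold 0.05. The fit was tested on simulated data.

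The comparison and the 39 lists (1196 entries, 954 measured) were chosen with earlier results of these data known. Lists share members and are described by counts and medians, without a test. The genes named were, first, the 14 largest increases and 14 largest decreases that were called, in genes with a mean signal, in whichever group was higher, of at least the probe set median. To these came 5 genes of lowest p for E+14P versus E+7P, the 3 called members of lowest p per list, and PGR, ESR1 and FKBP5. List members had no such signal limit, and some, as CDC20B, CENPE and CD38, were dimmer. The rule gave 106 genes. Another 36, and list members given as further examples, were chosen after their values were seen. For 0 named genes was another probe set called the opposite way.

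Alternatives were quantile normalization, centring on array medians, a filter that drops the dimmest 40% of probe sets, no variance trend, array weights, all 25 arrays, the late arrays as 1 group, a minimum change of 1.5-fold, 1 probe set per gene, squamous, smooth muscle or columnar covariates, and omission of the arrays that stand apart or of each array in turn.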

Additional observations from a re-analysis of the deposited data

Results flagged for a closer look

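Among 568 groups of 5 or 10 arrays (142 genes in 4 groups), 35 held an array whose gap to the next, divided by the range of the group, exceeded Dixon's critical value. Chance flags about 1 in 20 groups. Values are log2 signals, and the groups of a gene overlap, since the late arrays include E+7P and E+14P.

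E+14P replicate 4, the array low in ciliated markers, had the lowest late signal of CCL26 (5.94), CLU (8.213), CAPS (4.797), TSPAN8 (5.16) and IL33 (7.99), the last also within E+14P. E+14P replicate 1 had the highest signal of OVGP1 (6.839) and TFF3 (9.989), in the late arrays and within E+14P, and the highest late signal of PIGR (9.718). It also had the lowest late signal of UQCRQ (9.754) and the highest E+14P signal of TMED3 (8.166). E+7P replicate 1 was lowest for TSPAN7 (5.63), in the late arrays and within E+7P, and E+7P replicate 5 had the lowest late signal of PGR (8.795).

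Within E+7P, replicate 1 was highest for TRHDE (7.395) and lowest for FOXJ1 (6.755). Replicate 3 was highest for SCARA3 (7.357) and NKG7 (6.865) and lowest for MFSD2A (4.561) and DHRS9 (6.241). CREB3L1 was highest in replicate 2 (9.138), CCND1 in replicate 4 (7.003) and TUSC3 in replicate 5 (6.319). Within E+14P, replicate 2 was lowest for CA2 (5.296) and KRT7 (5.52) and highest for POMP (10.162), replicate 3 was highest for IL1R1 (9.825) and GREB1 (7.672), and replicate 5 was lowest for LMAN1 (9.197). Within E+1P, replicate 5 was lowest for IL1R2 (9.05) and FKBP5 (7.868), replicate 1 highest for EOMES (5.499) and replicate 3 lowest for DIO3 (5.635).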

How the results depend on the processing

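Counts below are called probe sets of 40489. For late versus E+1P the 2802 calls became 1580 with the smooth muscle covariate, 1762 with the columnar covariate and 140 (12 higher and 128 lower) against a minimum change of 1.5-fold. For E+7P versus E+1P the 1598 calls became 996 with all 25 arrays and 84 against 1.5-fold. For E+14P versus E+1P the 2200 calls became 1305 with all 25 arrays, 1020 with the smooth muscle and 895 with the columnar covariate, and 116 against 1.5-fold. The other alternatives moved these counts by less than 1.5 times, and E+14P versus E+7P had 0 calls in every alternative. Leaving out single arrays gave 1921 to 2917, 1094 to 1680 and 1540 to 2283 calls for the 3 comparisons in that order. The cause of these shifts was not tested. PGR, which was not called, had a log2 fold change of -0.0945 with the smooth muscle covariate (adjusted p = 0.885) and -0.0815 with the columnar covariate (adjusted p = 0.89), against 0.13. Of 3856 values of named genes under the alternatives, 3376 kept their side of the threshold, 478 were no longer called and 2, those of PGR, changed sign. Against a minimum change of 1.5-fold, 4 of the 14 largest increases (TNFSF10, NT5E, SCARA3 and ADAMTS5) and all of the 14 largest decreases but CLCA1 and SLC28A2 were called. List counts stayed within 1.5 times in 885 of 1092 values. No paired analysis was possible because the labels carry no replicate numbers that groups share. The number in the array title was higher on every E+1P array than on every E+14P array. E+7P arrays had numbers both below and above those of E+1P. What these numbers stand for is not given in the titles, and whether they bear on the results was not tested. Signal over background is unknown.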
